A study of Mus musculus with 4 samples.

Results

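The genes described here are 32 genes of the ATF4 amino acid response and the cytosolic tRNA synthetases, chosen by gene symbol from a table of 24341 genes. All 32 symbols were found in the table. They fall into 9 stress factors, 7 enzymes of amino acid synthesis and one-carbon metabolism, 4 transporters and 12 tRNA synthetases. Transcripts were measured in CAD (Cath.-a-differentiated) cells, a mouse line of catecholaminergic origin that grows neuron-like processes once serum is withdrawn. One group, called ACSS2i below, received 20 µM of a quinoxaline urea that inhibits ACSS2, an enzyme that makes acetyl-CoA from acetate, for 24 h. The other group received the solvent DMSO. Both groups were kept for 5 days in serum-free medium with glutamine, each had 2 libraries, and all 4 came from this single cell line. Nothing in the labels ties the replicates to separate cultures, and the p-values below therefore reflect library-to-library spread alone, possibly technical.

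When amino acids are short, or when unfolded proteins, heme loss or viral RNA activate other kinases, translation factor eIF2 is phosphorylated. General translation then slows while the transcription factor ATF4 is made in larger amounts, because its messenger RNA carries upstream reading frames. ATF4 pairs with C/EBP proteins and raises genes that make, import and charge amino acids onto tRNA, together with regulators such as CHOP (Ddit3) and TRIB3 that shape whether a stressed cell recovers or dies. Since ATF4 is controlled mainly through translation, the level of its transcript does not by itself report the amount of protein.

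The DNA element that ATF4 and C/EBP proteins bind together was searched in the promoter windows as TGATGNAA on both strands, where N is any base. The windows were RefSeq's on GRCm38.p6, from 250 bases before to 50 bases after the annotated start of transcription, and 25 of the 32 genes had one. Aldh1l2, Slc7a5, Slc7a3, Wars, Cars, Nars and Lars had none. The letters were found in 9 of the 25 genes (36.0%), against 4.51% of the 27025 genes with a window. These members were chosen as known genes of the response, so the share describes the choice and is no result of the treatment. Of the 10 matches found, 9 are shown because they are the sequence that the named genes have in common. Each is printed 5′ to 3′ on the strand on which it reads TGATGNAA, with the match in capitals and 10 bases on either side.
Asns, chr6:7693215-7693242, minus strand: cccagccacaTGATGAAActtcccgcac
Trib3, chr2:152344029-152344056, plus strand: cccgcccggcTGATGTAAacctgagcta
Chac1, chr2:119351039-119351066, minus strand: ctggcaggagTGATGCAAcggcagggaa
Nupr1, chr7:126625563-126625590, plus strand: aagccctgtcTGATGCAAtctggccctt
Aars, chr8:111033841-111033868, minus strand: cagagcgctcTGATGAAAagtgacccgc
Gars, chr6:55037961-55037988, minus strand: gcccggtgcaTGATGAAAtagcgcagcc
Yars, chr4:129189896-129189923, plus strand: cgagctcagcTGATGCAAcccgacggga
Tars, chr15:11399656-11399683, plus strand: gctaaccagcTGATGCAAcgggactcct
Iars, chr13:49682127-49682154, minus strand: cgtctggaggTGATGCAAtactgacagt
Among all 10, 6 had C at the free position, 3 had A and 1 had T. Of these, 8 lay on the strand opposite to the gene, 6 lay before the annotated start and 4 after it. By role, the letters were found in 5 of 8 tRNA synthetases, 3 of 9 stress factors, 1 of 6 enzymes and 0 of 2 transporters with a window.

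The promoter of Chac1, which encodes an enzyme that breaks down glutathione, shows the setting of such a match. It is printed from 200 to 14 bases before the annotated start (chr2:119351042-119351228, plus strand), where the match lies on the opposite strand and so appears as its reverse complement, in capitals.
Chac1: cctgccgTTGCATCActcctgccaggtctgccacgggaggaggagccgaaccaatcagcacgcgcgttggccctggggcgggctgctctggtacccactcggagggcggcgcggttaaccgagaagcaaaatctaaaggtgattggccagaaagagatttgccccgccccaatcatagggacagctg
A match is a run of letters and was not shown here to bind anything, and a gene without one may hold the element outside the window.

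Levels are in FPKM, which divides the fragments of a gene by its transcript length and by library size. Relative to DMSO replicate 1, the other libraries had depths of 0.292 to 0.857, the lowest being DMSO replicate 2, read from the spacing of the low values. A single read in a 3 kb transcript was worth a nominal 0.0285 to 0.0977 FPKM. The member with the fewest reads, Cebpb in ACSS2i replicate 2, stood on about 170 reads, a counting error of 7.67%, and for the other members the lowest library had a counting error of at most 6.0%. For the members with the fewest reads, gaps between libraries of a few percent are thus no larger than counting error. For Atf4 that error was 1.15% in the library with its fewest reads. Of the 13 neuronal and catecholaminergic markers, 8 were at 17.5 FPKM or more in every library. Th was at 2.92 to 4.09 FPKM, Ddc at 0.0671 to 3.73 FPKM, and Dbh, Nefl and Nefm stayed at or below 0.624 FPKM. The neuronal markers did not share an order of libraries. Slc18a2, Gap43, Snap25 and Chga were lowest in ACSS2i replicate 1, as with Slc18a2 at 21.6 and 109 FPKM in ACSS2i and 70.2 and 62.3 FPKM in DMSO. Chgb, at 4453 and 2509 FPKM in ACSS2i and 6801 and 10010 FPKM in DMSO, and Syp were lower in both ACSS2i libraries, and Tubb3 was highest in ACSS2i replicate 2. Of the markers of glia, microglia, fibroblasts and endothelium, 12 stayed at or below 0.479 FPKM, Mbp was at 2.10 to 2.92 FPKM and Pecam1 at 0.348 to 1.62 FPKM. The proliferation markers Mki67, Top2a and Ccnb1 moved with the groups, with summed levels of 47.9 and 97.4 FPKM in ACSS2i and 3.34 and 9.31 FPKM in DMSO. The part of these markers in the results below was not tested.

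Several of these transcripts were abundant. Averaged over the 4 libraries, Atf4 was at 1189 FPKM, and 0.679% of the 11486 tested genes had a higher level. Ddit3 was at 1049.7 FPKM, Asns at 434 FPKM and Nupr1 at 423 FPKM. Among the tRNA synthetases, levels ran from 60.1 FPKM for Yars to 415 FPKM for Gars. The members at the lowest levels were Cebpb, at 23.0 FPKM, and Slc6a9, at 19.7 FPKM.

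**Figure D1:**
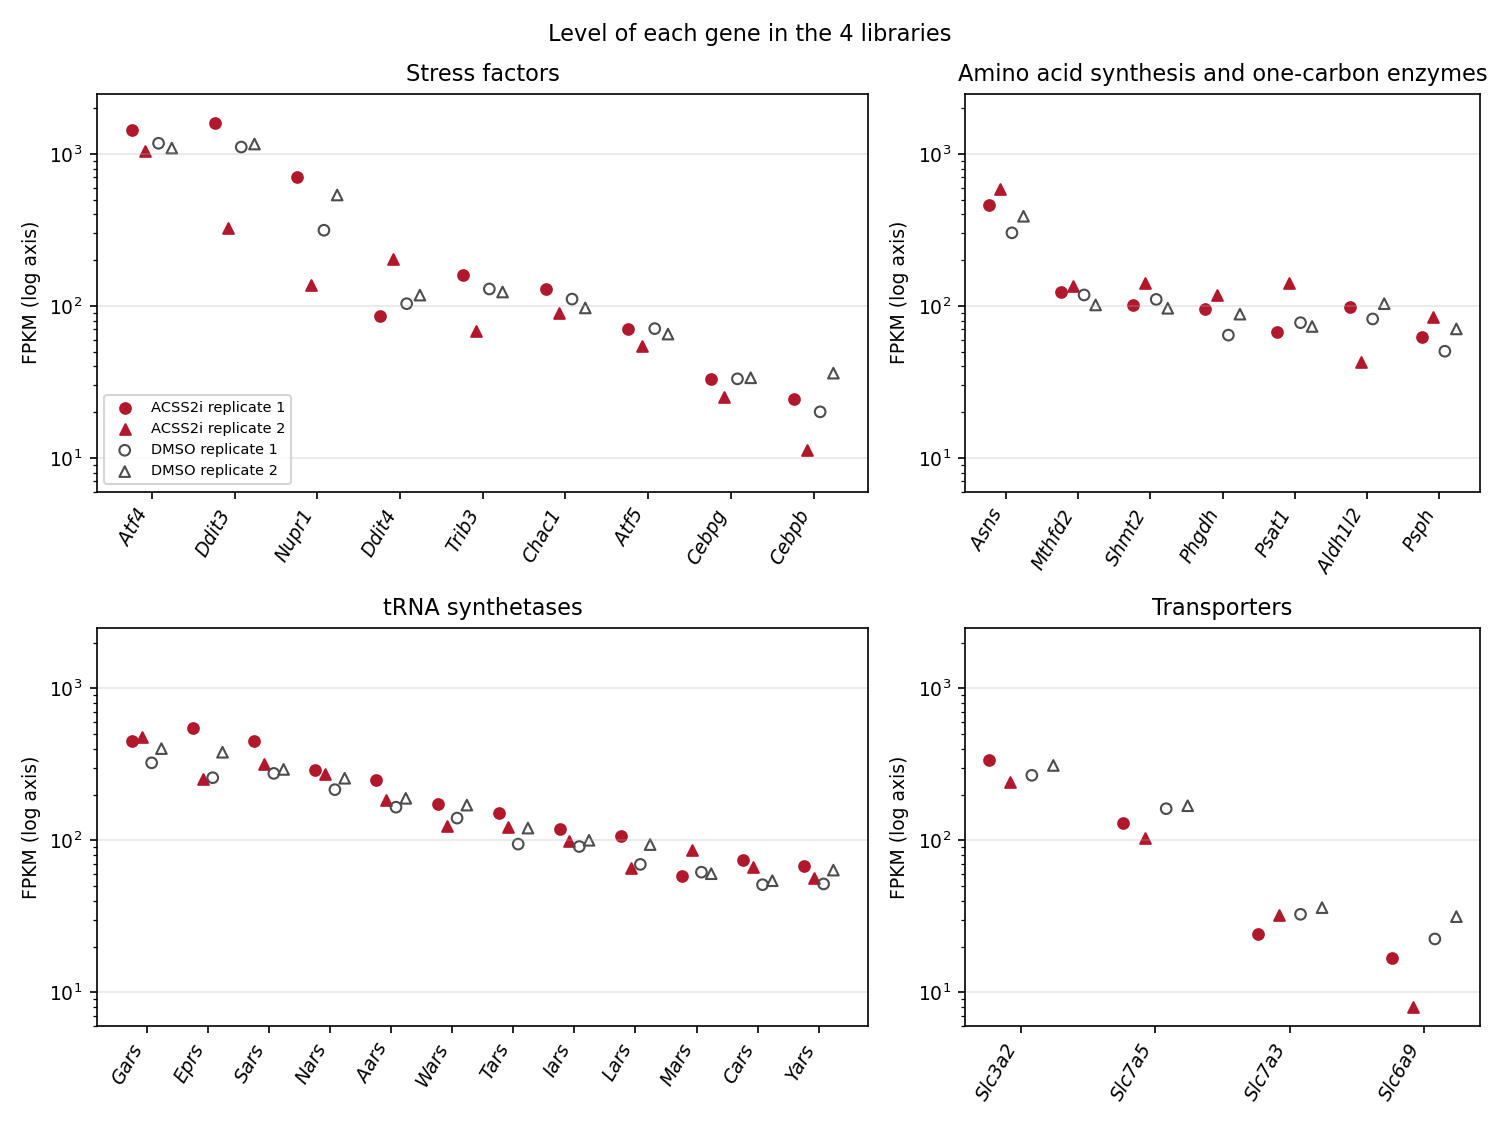
FPKM of each gene (log axis) in the 4 libraries, in a panel for each role, with genes ordered by their mean level. Filled red symbols are ACSS2i libraries and open grey symbols DMSO libraries, circles for replicate 1 and triangles for replicate 2. Ddit3 shows 1602 and 324 FPKM in ACSS2i on either side of 1110.4 and 1162 FPKM in DMSO, while for Asns both red symbols lie above both grey ones.

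None of the 32 genes passed the test. ACSS2i was compared with DMSO by limma on log2(FPKM + 1), a scale on which all log2 fold changes below are given as ACSS2i minus DMSO with limma's standard error (SE). At a Benjamini-Hochberg adjusted p under 0.05, 0 of the 32 members were called, against 3 of all 11486 tested genes (0.0261%). At an unadjusted p under 0.05, 1 member passed, Slc6a9, lower, against 6.96% of tested genes in either direction, 3.67% lower and 3.29% higher. Both ACSS2i libraries lay above both DMSO libraries in 8 members (background 19%) and below both in 3 (background 18.3%), 11 in all, or 34.4% of the members against 37.3% of all tested genes. The median log2 fold change over the members was 0.15, with 20 of 32 positive (62.5%), against 0.020 and 52.2% positive over all tested genes. The members' median was -0.050 without ACSS2i replicate 1 (15 positive), 0.28 without ACSS2i replicate 2, 0.082 without DMSO replicate 1 and 0.054 with short RNA genes removed. The share of members without overlap was thus close to the background. By role they did not lie in the same place: the median was -0.39 for the transporters, -0.20 for the stress factors, 0.26 for the tRNA synthetases and 0.29 for the enzymes. Differences between roles were not tested, because genes are not replicates. With 2 libraries a group, the smallest two-sided p of an exact permutation test is 0.333. After quantile normalization, which removes differences in the spread of values between libraries, 7 members did not overlap in place of 11, and with short RNA genes removed and values rescaled 8 did not.

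For most stress factors the ACSS2i libraries lay on opposite sides of the DMSO mean. In 7 of 9, ACSS2i replicate 1 lay on one side of the DMSO mean and ACSS2i replicate 2 on the other, against 41.7% of all tested genes, and the groups overlapped in all 9. The ACSS2i libraries also lay on opposite sides in 9 members of the other roles, among them Aldh1l2, Psat1, Eprs and Slc3a2. Relative to the DMSO mean, the median stress factor stood at 0.31 in ACSS2i replicate 1 and at -0.39 in ACSS2i replicate 2 on the log2 scale. By construction, the group's median of -0.20 took these same values with an ACSS2i library left out. It was 0.31 without ACSS2i replicate 2 and -0.39 without ACSS2i replicate 1.

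Atf4 itself was at 1433 and 1053 FPKM in ACSS2i and at 1176 and 1093 FPKM in DMSO. One ACSS2i library lay above both DMSO libraries and the other below both, and the log2 fold change was 0.12 ± 0.33 (limma SE, adjusted p = 0.968), changing sign to -0.093 after quantile normalization. Its relative Atf5 had a log2 fold change of -0.13. Ddit3, which encodes CHOP, a factor that promotes death in prolonged stress, was at 1602 and 324 FPKM in ACSS2i and at 1110.4 and 1162 FPKM in DMSO. The DMSO libraries lay close together, and the ACSS2i libraries lay far above and far below them (log2 fold change -0.66 ± 0.73, SE, adjusted p = 0.898 by limma). Trib3, a pseudokinase that ATF4 and CHOP raise and that restrains them, was at 160.4 and 68.9 FPKM in ACSS2i and at 129 and 123 FPKM in DMSO. Like Ddit3, it was highest in ACSS2i replicate 1 and lowest in ACSS2i replicate 2. Its log2 fold change was -0.26 ± 0.42 (SE, adjusted p = 0.936 by limma).

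Nupr1, a small stress-induced chromatin protein, was chosen for its values after they were seen. It was at 702 and 136 FPKM in ACSS2i and at 315 and 537 FPKM in DMSO. The gap from ACSS2i replicate 1 to replicate 2 was -2.36 on the log2 scale, and 0.827% of tested genes had a gap of larger size. The same gap was -2.30 for Ddit3 (0.905% of tested genes larger). For comparison, the gap from DMSO replicate 1 to replicate 2 was 0.77 for Nupr1 and 0.065 for Ddit3. Ddit4, which encodes an inhibitor of the growth kinase mTORC1, went the other way, at 85.3 and 205 FPKM in ACSS2i and 103 and 118 FPKM in DMSO (also chosen after its values were seen). Of the 9 stress factors it alone was higher in ACSS2i replicate 2 than in ACSS2i replicate 1.

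Chac1 was at 129 and 90.5 FPKM in ACSS2i and at 111 and 97.0 FPKM in DMSO, a log2 fold change of 0.056 ± 0.28 (SE, adjusted p = 0.979 by limma) that was -0.034 on quantile-normalized values and -0.039 once short RNA genes were removed. The C/EBP genes, whose products pair with ATF4, were also lower in ACSS2i replicate 2. Cebpb was at 24.5 and 11.3 FPKM in ACSS2i and at 20.1 and 36.1 FPKM in DMSO (log2 fold change -0.66 ± 0.44, SE, adjusted p = 0.812 by limma). The DMSO libraries themselves were far apart for this gene. Cebpg was at 33.2 and 25.1 FPKM in ACSS2i and at 33.1 and 33.6 FPKM in DMSO (log2 fold change -0.20 ± 0.24, SE, adjusted p = 0.907 by limma).

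**Figure D2:**
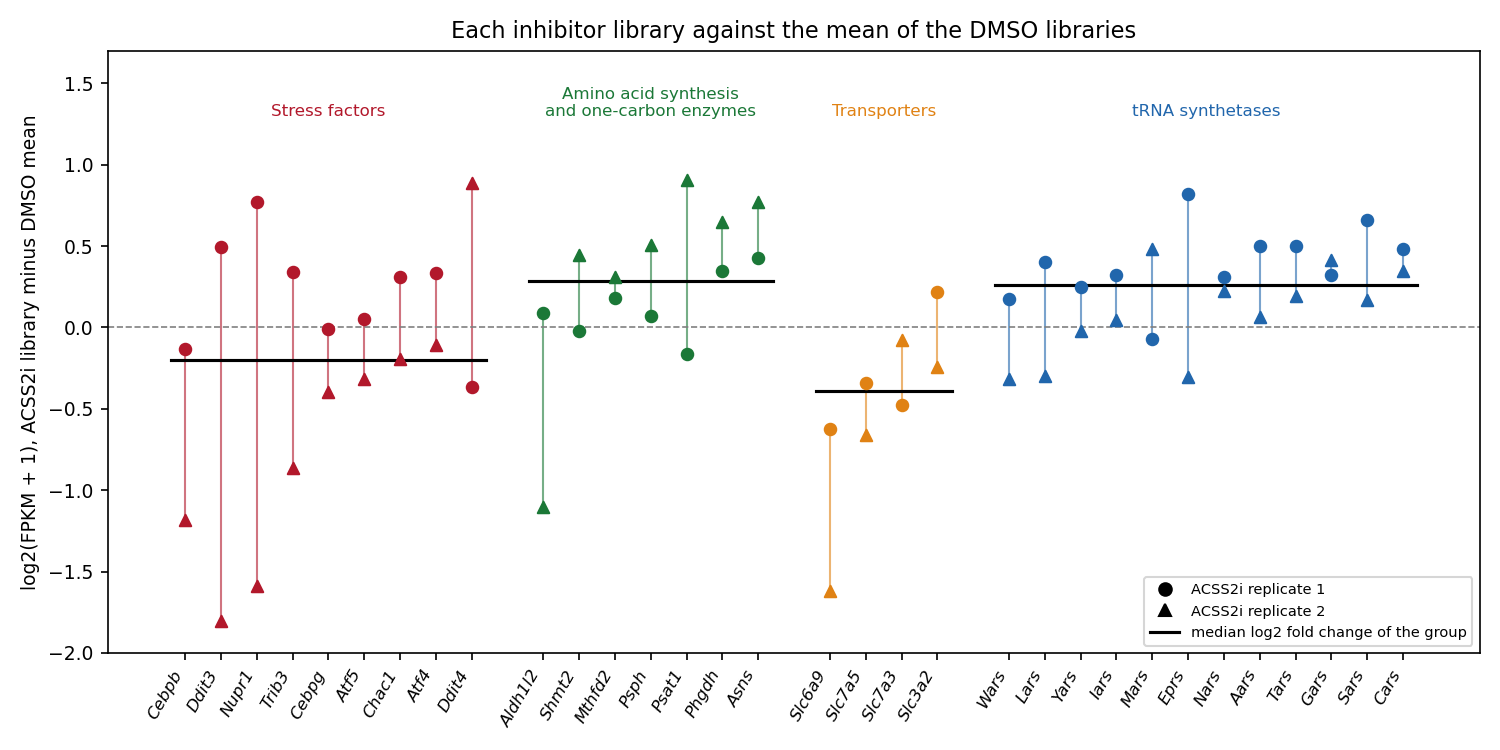
Difference of each ACSS2i library from the mean of the DMSO libraries on log2(FPKM + 1), by gene and role. Circles are ACSS2i replicate 1, triangles ACSS2i replicate 2, and black bars the median log2 fold change of each role, from -0.39 for the transporters to 0.29 for the enzymes. The vertical lines cross 0 for 7 of the 9 stress factors.

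Of the 7 enzymes, 6 had a positive log2 fold change, also under every rescaling tried, and 3 did not overlap between groups, all higher. Over all tested genes 52.2% were positive, 19% did not overlap and were higher, and 37.3% did not overlap in either direction. None of the 7 passed the test. The median of 0.29 was 0.51 without ACSS2i replicate 1 and 0.088 without ACSS2i replicate 2. Asns, asparagine synthetase, at chromosome 6, 7675169 to 7693254 on the minus strand of GRCm38, was at 461 and 585 FPKM in ACSS2i and at 303 and 389 FPKM in DMSO. Each ACSS2i library lay above each DMSO library (log2 fold change 0.60 ± 0.30, SE, adjusted p = 0.785 by limma). Phgdh, the first enzyme of serine synthesis from glucose, was at 95.9 and 119 FPKM in ACSS2i and at 64.2 and 88.2 FPKM in DMSO. Here too the groups were separate (log2 fold change 0.50 ± 0.28, SE, adjusted p = 0.799 by limma), though the DMSO libraries differed by nearly as much as the groups did, and the value was 0.27 without DMSO replicate 1.

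The later steps of the serine pathway were less uniform. Psat1, the transaminase after Phgdh, was at 67.2 and 142 FPKM in ACSS2i and at 77.5 and 73.2 FPKM in DMSO, so that its log2 fold change of 0.37 came from ACSS2i replicate 2 alone (a gene chosen after its values were seen). Psph, the phosphatase that releases serine, had a log2 fold change of 0.29, which was 0.047 without DMSO replicate 1 and 0.53 without DMSO replicate 2. Shmt2, which moves a carbon unit from serine to folate in mitochondria, had 0.21, and Mthfd2, the next mitochondrial folate enzyme, had 0.24 with groups that did not overlap, although they did after quantile normalization.

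Aldh1l2 was the exception among the enzymes. It oxidizes formyl-folate in mitochondria and makes NADPH, and it was at 98.0 and 42.4 FPKM in ACSS2i and at 82.0 and 103 FPKM in DMSO. ACSS2i replicate 2 lay below the other 3 libraries, as for Ddit3 and Nupr1 (log2 fold change -0.51 ± 0.42, SE, adjusted p = 0.845 by limma).

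All 4 transporters had a negative log2 fold change, under every rescaling tried as well, though that of Slc3a2 was close to 0. In 3 of them both ACSS2i libraries lay below both DMSO libraries, as in 18.3% of all tested genes, and 0 passed the test. On median-centred log values the groups were separate in 2 of the transporters. The group's median was -0.34 to -0.45 whichever library was left out. Slc6a9, the glycine transporter GlyT1, which lies on the plus strand of chromosome 4 (117834506 to 117875198), was at 16.9 and 7.97 FPKM in ACSS2i and at 22.4 and 31.5 FPKM in DMSO. Its groups were separate, and its log2 fold change was the furthest from 0 among the 32 genes, -1.12 ± 0.38 (SE, unadjusted p = 0.0267, adjusted p = 0.619 by limma). Its unadjusted p was 0.132 without DMSO replicate 2, 0.0791 without ACSS2i replicate 2 and 0.109 with no filter on low values. Slc6a9 shares 1429 of its 5141 exon bases with Ccdc24 on the opposite strand, a gene at 1.86 and 2.33 FPKM in ACSS2i and 1.92 and 2.28 FPKM in DMSO.

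Slc7a5 and Slc3a2 encode the light and heavy chains of one transporter, which carries leucine and other large amino acids, and their values are given side by side. Slc7a5 was at 130.4 and 104 FPKM in ACSS2i and at 162 and 169 FPKM in DMSO, with separate groups (log2 fold change -0.50 ± 0.25, SE, adjusted p = 0.785 by limma). Slc3a2 was at 336 and 244 FPKM in ACSS2i and at 268 and 311 FPKM in DMSO. Its groups overlapped, and the log2 fold change was -0.014 ± 0.29 (SE, adjusted p = 0.995 by limma). The difference between both genes was not tested. The heavy chain also serves other light chains. Slc7a3, a carrier of arginine and lysine, was at 24.4 and 32.4 FPKM in ACSS2i and at 32.6 and 36.1 FPKM in DMSO, just apart (log2 fold change -0.28 ± 0.25, SE, adjusted p = 0.854 by limma).

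The tRNA synthetases attach each amino acid to its tRNA. Of the 12, 11 had a positive log2 fold change, against 52.2% of all tested genes, and 0 passed the test. In 5 (41.7%) the groups did not overlap, all higher, against 19% of all tested genes higher and 37.3% in either direction. After quantile normalization, or with short RNA genes removed, 10 were positive and 2 did not overlap, and 8 were positive without ACSS2i replicate 1 or without DMSO replicate 1. The median of 0.26 was 0.12 without ACSS2i replicate 1 and 0.39 without DMSO replicate 2, the shallowest library. In 10 of the 12, ACSS2i replicate 2 was below ACSS2i replicate 1, against 48.1% of all tested genes, and in 11 DMSO replicate 2 was above DMSO replicate 1, against 49.7%. Most of the set thus had the same order of libraries within each group.

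Cars, the cysteinyl-tRNA synthetase, was at 74.1 and 67.2 FPKM in ACSS2i and at 51.1 and 54.3 FPKM in DMSO. The libraries of each group lay close together, and the groups were separate (log2 fold change 0.42 ± 0.23, SE, adjusted p = 0.791 by limma). Sars, which charges serine, was at 449.7 and 320.4 FPKM in ACSS2i and at 276 and 293 FPKM in DMSO (log2 fold change 0.41 ± 0.29, SE, adjusted p = 0.819 by limma). Gars, which charges glycine, was at 451 and 482 FPKM in ACSS2i and at 324 and 402 FPKM in DMSO (log2 fold change 0.37 ± 0.28, SE, adjusted p = 0.829 by limma). For Cars and Gars the groups stayed separate after quantile normalization, and for Sars, Tars and Nars they did not. Tars and Nars had log2 fold changes of 0.35 and 0.27, and Aars, Mars, Iars, Yars and Lars of 0.28, 0.21, 0.18, 0.11 and 0.052. Wars, the tryptophanyl enzyme, was the single negative one, at -0.071. The value of Lars turned to -0.0077 on quantile-normalized values and to -0.042 once short RNA genes were removed.

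Eprs, which charges both glutamate and proline and is part of the large synthetase complex, had the widest spread of the 12. It was at 553 and 254 FPKM in ACSS2i and at 259 and 380.4 FPKM in DMSO (log2 fold change 0.26; chosen after its values were seen). The lowest and the highest value both came from ACSS2i.

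Over the 32 genes the median size of the gap between libraries was 0.45 log2 units in ACSS2i and 0.20 in DMSO, against 0.36 and 0.23 over all tested genes. By role the median gap in ACSS2i was 1.05 for the stress factors, 0.44 for the enzymes, 0.43 for the transporters and 0.37 for the tRNA synthetases. In all 9 stress factors the gap in ACSS2i was larger than that in DMSO, against 63.7% of all tested genes. The sign differed by role as well: ACSS2i replicate 2 was below replicate 1 in 8 of 9 stress factors and in 1 of 7 enzymes.

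**Figure D3:**
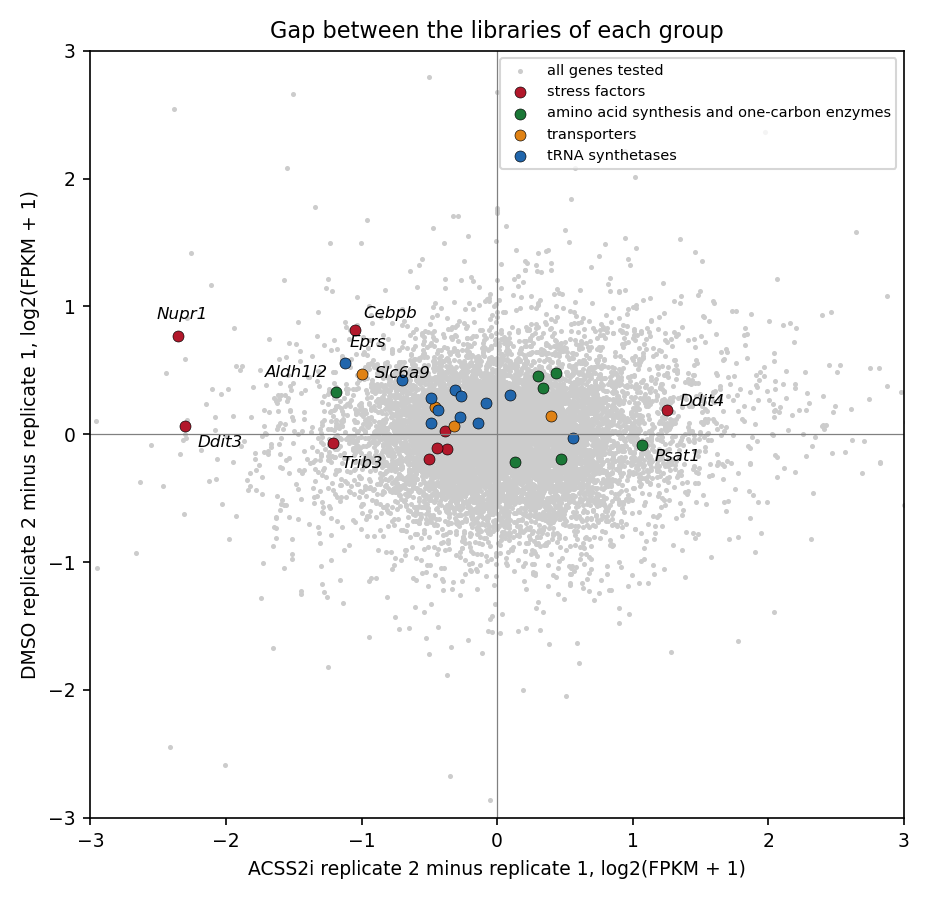
Replicate 2 minus replicate 1 on log2(FPKM + 1) within ACSS2i (horizontal axis) and within DMSO (vertical axis), for all tested genes (grey) and the 32 members (colour). The axes end at 3 on either side, which leaves out 97 of the grey genes. Among the members, Nupr1 and Ddit3 lie furthest to the left, at -2.36 and -2.30, and Ddit4 furthest to the right.

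Other genes of the pathway, listed by function, had 0 calls at an adjusted p under 0.05. Of 17 genes of the eIF2 kinases, eIF2, its exchange factor and its phosphatase, 11 had a positive log2 fold change (64.7%, against 52.2% of all tested genes; median 0.18), and at an unadjusted p under 0.05 1 was higher and 0 were lower, against 3.29% and 3.67%. The median was 0.022 without DMSO replicate 1, 0.32 without DMSO replicate 2 and 0.087 with short RNA genes removed. The gene that passed was Eif2b5, the catalytic subunit of the exchange factor that phosphorylated eIF2 blocks, at 60.2 and 64.4 FPKM in ACSS2i and 35.7 and 40.4 FPKM in DMSO (log2 fold change 0.70 ± 0.23, SE, adjusted p = 0.618 by limma). Its unadjusted p of 0.0223 was 0.173 without DMSO replicate 1, 0.0934 without DMSO replicate 2 and 0.0519 with short RNA genes removed. Eif2s3x, the gamma subunit of eIF2, had 0.52 and Gcn1l1, an activator of the amino acid sensor GCN2, had -0.45. Ppp1r15a, which encodes the phosphatase subunit GADD34 that restores translation, was split as Ddit3 was: 389 and 70.7 FPKM in ACSS2i and 207 and 290.3 FPKM in DMSO (chosen after its values were seen).

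Of 29 tested targets and partners of ATF4 outside the 32, 20 had a negative log2 fold change (median -0.16). Leaving out ACSS2i replicate 1 gave a median of -0.34, leaving out ACSS2i replicate 2 gave -0.10, and removing short RNA genes gave -0.25. At an unadjusted p under 0.05, 5 were lower and 0 higher, against 3.67% and 3.29% of all tested genes. The number past that threshold was 7 with short RNA genes removed, against 859 of 11391 tested genes. It was 3 with the replicate number in the model as a block, against 745 of 11486. With either DMSO library left out, the median log2 fold change was -0.20. Of the 29, 8 lay below both DMSO libraries (background 18.3%) and 3 above both (background 19%), together 37.9% against 37.3% of all tested genes. Gdf15, a secreted stress hormone, was at 15.9 and 20.0 FPKM in ACSS2i and at 37.7 and 44.3 FPKM in DMSO. Both ACSS2i libraries were well below both DMSO libraries (log2 fold change -1.15 ± 0.24, SE, unadjusted p = 0.00328, adjusted p = 0.458 by limma). Vegfa, a growth factor of blood vessels, had a log2 fold change of -0.84, and Slc7a1, a further carrier of arginine and lysine, had -0.76. Atf3, a repressor raised by ATF4, was at 158 and 16.7 FPKM in ACSS2i and at 40.5 and 65.0 FPKM in DMSO, with the same split as Ddit3, Nupr1 and Ppp1r15a (chosen after its values were seen).

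All 12 of the other cytosolic synthetases and scaffold proteins of the complex had a positive log2 fold change (median 0.39), and in 9 both ACSS2i libraries lay above both DMSO libraries, as in 19% of all tested genes. All 12 stayed positive under every rescaling tried and 11 without DMSO replicate 2. At an unadjusted p under 0.05, 2 were higher and 0 lower, against 3.29% and 3.67% of all tested genes. With short RNA genes removed, 1 passed, against 859 of 11391 tested genes. With the replicate number as a block, 1 passed, against 745 of 11486. The median ran from 0.30 to 0.48 with a library left out. Aimp2, a scaffold of the complex, was at 61.2 and 65.2 FPKM in ACSS2i and at 38.0 and 36.9 FPKM in DMSO (log2 fold change 0.74 ± 0.22, SE, adjusted p = 0.602 by limma). Tarsl2, a second threonyl enzyme, had 0.64 and Qars, the glutaminyl enzyme, 0.46. The list of mitochondrial synthetases also held Qrsl1, Gatb and Gatc, which are not synthetases. Of its 20 genes 16 were positive (80%), with a median of 0.14 and 0 at an unadjusted p under 0.05. Without DMSO replicate 2, 12 were positive with a median of 0.055, and with short RNA genes removed the median was 0.057. Fars2 had a log2 fold change of 0.47, and Cars2 had 0.61, which was 0.24 without DMSO replicate 2 and 0.99 without DMSO replicate 1.

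Among 23 other folate and one-carbon genes, 16 had a positive log2 fold change (median 0.27), 3 were higher and 1 lower at an unadjusted p under 0.05, against 3.29% and 3.67% of all tested genes. Both ACSS2i libraries lay above both DMSO libraries in 10 and below both in 5, against 19% and 18.3%. With short RNA genes removed the median was 0.18, and 3 genes passed that threshold, against 859 of 11391 tested genes. With a library left out the median ran from 0.21 to 0.38. Tyms, which makes thymidylate for DNA synthesis and is raised in dividing cells, was at 5.07 and 5.58 FPKM in ACSS2i and at 2.01 and 2.57 FPKM in DMSO (log2 fold change 0.95 ± 0.26, SE, adjusted p = 0.540 by limma). It moved with the proliferation markers given above, and the part of these was not tested. Mat2a, which makes the methyl donor S-adenosylmethionine, was at 194 and 113 FPKM in ACSS2i and at 274 and 503 FPKM in DMSO (log2 fold change -1.32 ± 0.42, SE, adjusted p = 0.609 by limma).

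**Figure D4:**
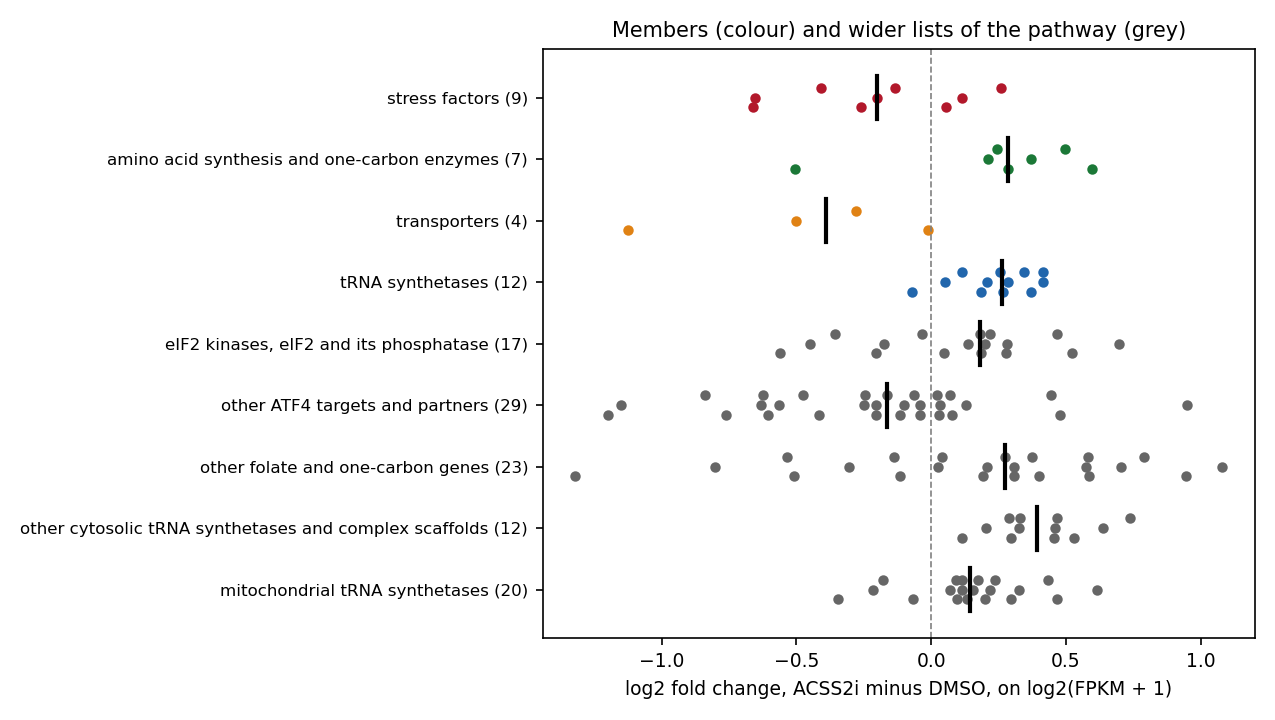
Log2 fold change (ACSS2i minus DMSO on log2(FPKM + 1)) of each tested gene, 1 point a gene, in the 4 roles of the members (colour) and in the wider lists (grey), with the number of genes in brackets and the median as a black bar. The medians run from -0.39 for the transporters to 0.39 for the other cytosolic synthetases and scaffolds, where all 12 points lie right of 0.

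Exon bases of 12 of the 32 members are shared with another annotated gene, and the sources used here do not say whether reads were assigned by strand. Ddit3 and Mars share 68 bases on opposite strands, and Mars, at 58.0 and 85.8 FPKM in ACSS2i and 61.8 and 60.4 FPKM in DMSO, did not follow Ddit3. Cebpb shares 312 of 1504 bases with Tmem189, which was at 11.5 and 12.6 FPKM in ACSS2i and 12.8 and 12.6 FPKM in DMSO. Psph shares 452 of 4329 bases with Cct6a, at 340 and 466 FPKM in ACSS2i and 260 and 295 FPKM in DMSO. Cct6a was thus higher in both ACSS2i libraries, and Psph had a positive log2 fold change. Aars shares 1326 of 9282 bases with Exosc6 on the same strand. Exosc6 was at 34.3 and 23.6 FPKM in ACSS2i and 26.6 and 21.4 FPKM in DMSO, highest in ACSS2i replicate 1 as Aars was. The part of shared bases in these values was not tested. In these bulk samples, fewer cells that express a gene and less RNA per cell cannot be told apart.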

How the data were processed

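Polyadenylated RNA of 4 CAD cell libraries was made into ScriptSeq v2 libraries and sequenced together in 1 NextSeq lane, per the labels' protocols. According to the submitters' processing notes, the tools were bcl2fastq (02.14.01.07), Cufflinks (2.2.1), Cuffdiff and STAR (2.3.0), with mm10 as the build. The authors' deposited table holds 1 adjusted value per gene and library, taken here as FPKM from Cufflinks, since no unit stands in its header. The adjustment and the gene annotation behind it are not given in the sources used here. No value lies under 0.01. One gene, Sept7, held a failure mark and was left out of the tests. Library sums were 558458 to 675716 FPKM.

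A gene was tested where its 4 values averaged 1 FPKM or more (11486 genes), on log2(FPKM + 1) with limma 3.58.1 in R 4.3.3 (trend, two-sided, Benjamini-Hochberg over all tested genes, threshold 0.05). The script was tested on simulated data. No count test was run, since the values were taken as normalized FPKM and not as counts. Depths are the most common ratios of low values (at most 0.5 FPKM), and read numbers use GENCODE M21 transcript lengths of 750 genes, so they are nominal. Positions are GENCODE M21 on GRCm38 (mm10). The members and lists were chosen with earlier results of these data known. Full values are given for Atf4, Ddit3, Trib3, Chac1, Asns, Phgdh, Slc7a5, Slc3a2 and Gars, for the 3 members of smallest unadjusted p in each role, and, as log2 fold changes at least, for the 3 genes of smallest p in each wider list. A few items that this rule or the lists would name are not reported here. Other genes given in full were chosen after their values were seen, or because they share exon bases with a member. Alternatives were 2 pseudocounts, 2 filters, 2 scalings, leaving out short RNA genes with rescaling, no trend, a replicate block and leaving out each library.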

Additional observations from a re-analysis of the deposited data

How the results depend on the processing

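With limma, 0 of the 32 members passed under the main settings and under every alternative that kept all libraries. The lowest adjusted p of a member by limma ran from 0.505 with short RNA genes left out to 0.780 without a filter. Over all genes, 3 were called, against 6 with a pseudocount of 0.1, 0 with a pseudocount of 5, 0 without a filter, 0 with short RNA genes left out, 8 with the replicate number as a block, and 17 to 38 with a library left out. The replicate numbers come from the labels, which do not say that they mark a shared culture; the differences between replicates correlated at -0.0165 over genes between the groups, and the block called 0 members. At an unadjusted p under 0.05 the block gave 3 other ATF4 targets in place of 5. Among the other cytosolic synthetases and scaffolds it gave 1, the scaffold gene Aimp2, in place of 2. With quantile normalization 7 members did not overlap, and with a library left out 15 to 29 of 32, where 61.2% to 76.1% of all tested genes did not overlap because a group of 1 library overlaps less. With short RNA genes left out 41.8% of all tested genes had a positive log2 fold change, against 52.2%, with a median of -0.065 against 0.020.

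With a library left out, the median log2 fold change ran from -0.39 to 0.31 for the stress factors, 0.088 to 0.51 for the enzymes, -0.45 to -0.34 for the transporters and 0.12 to 0.39 for the tRNA synthetases. Of the 32 members, 16 kept their sign throughout. The others ran from -0.11 to 0.34 for Atf4, -0.32 to 0.054 for Atf5, -1.81 to 0.50 for Ddit3, -0.37 to 0.89 for Ddit4, -0.87 to 0.34 for Trib3, -0.19 to 0.31 for Chac1, -1.59 to 0.77 for Nupr1, -0.16 to 0.90 for Psat1, -0.023 to 0.45 for Shmt2, -1.10 to 0.088 for Aldh1l2, -0.24 to 0.22 for Slc3a2, -0.31 to 0.17 for Wars, -0.30 to 0.82 for Eprs, -0.035 to 0.26 for Yars, -0.072 to 0.48 for Mars and -0.30 to 0.40 for Lars. Among members that kept their sign, the range was -1.19 to -0.14 for Cebpb, -0.39 to -0.0089 for Cebpg, 0.27 to 0.72 for Phgdh, 0.047 to 0.53 for Psph, -1.62 to -0.63 for Slc6a9, -0.48 to -0.080 for Slc7a3, 0.17 to 0.66 for Sars, 0.21 to 0.52 for Gars, 0.17 to 0.52 for Tars, 0.14 to 0.39 for Nars, 0.067 to 0.50 for Aars and 0.049 to 0.32 for Iars. The values of Atf4, Chac1 and Lars also turned with quantile normalization (-0.093, -0.034 and -0.0077), and those of Chac1 and Lars with short RNA genes left out (-0.039 and -0.042). The cause was not tested, except that a fit with 1 library in a group takes its spread from the other group. Each group had 2 libraries, and DMSO replicate 2 had 0.292 of the depth of DMSO replicate 1. The weight of these limits was not compared.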

Other observations

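The genes below belong to the wider lists counted in the report and were picked after their values were seen. Transsulfuration makes cysteine from methionine. Cth, which releases cysteine, was at 24.3 and 54.7 FPKM in ACSS2i and at 20.0 and 17.1 FPKM in DMSO, with separate groups (log2 fold change 0.95 ± 0.40, SE, adjusted p = 0.733 by limma). Cbs, the step before it, was at 2.15 and 3.32 FPKM in ACSS2i and at 1.86 and 1.45 FPKM in DMSO. Slc7a11, the cystine importer, was at 11.5 and 5.41 FPKM in ACSS2i and at 10.5 and 35.7 FPKM in DMSO, and its DMSO libraries were further apart than its ACSS2i libraries. Fgf21, a secreted hormone that ATF4 raises, was below the filter, at 0.159 FPKM and the floor of 0.01 in ACSS2i and at 0.857 and 2.2 FPKM in DMSO.

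Impact, a brake on the amino acid sensor GCN2 that is highly expressed in neurons, was at 271 and 81.5 FPKM in ACSS2i and at 149 and 156 FPKM in DMSO, split as Ddit3 was. Stc2, a secreted glycoprotein of the stress response, was at 40.5 and 16.1 FPKM in ACSS2i and at 31.7 and 26.2 FPKM in DMSO. Ero1l, an oxidase of the endoplasmic reticulum, had the opposite order, at 20.7 and 69.7 FPKM in ACSS2i and at 50.6 and 69.6 FPKM in DMSO. In each of these the ACSS2i libraries differed more than the DMSO libraries did.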
